A study of Mus musculus with 8 samples.

Results

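The genes described here regulate the G1 phase of the cell cycle in mouse bone marrow B cells. They are the D-type cyclins Ccnd1, Ccnd2 and Ccnd3, the kinases Cdk4 and Cdk6, the inhibitors Cdkn1a, Cdkn1b, Cdkn2c and Cdkn2d, and the transcription factor gene Myc. All 10 were found by their Ensembl identifier among the 54532 identifiers of the count table, and all 10 had enough reads to be tested. The rule that chose them used their function and not their values, but earlier results of these data were known when it was made.

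A cell in G1 decides whether to copy its DNA. D-type cyclins bind the kinases CDK4 and CDK6, and the active complexes phosphorylate the retinoblastoma protein, which then releases E2F factors that switch on the genes of S phase. INK4 proteins, among them the products of Cdkn2c and Cdkn2d, bind the kinases directly, whereas CIP/KIP proteins, the products of Cdkn1a and Cdkn1b, act on the cyclin-kinase complexes and most strongly on those of CDK2. Myc drives cell growth, ribosome synthesis and G1 progression. In the bone marrow the B lineage alternates between cycling and resting stages: large pre-B cells divide in response to interleukin-7 and the pre-B cell receptor, with cyclin D3 as the D-type cyclin that this expansion needs, and small pre-B cells then leave the cycle and rearrange their light chain genes.

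RNA of bone marrow B cells was sequenced from ovariectomized mice (OVX), a model of estrogen deficiency, and from sham-operated mice (Sham), with 3 libraries in each group. The cells were enriched with magnetic beads (MACS) as B cells of all stages together, so they mix stages of the lineage. The labels give no genotype, age or time after surgery for these mice and do not say whether each library is a separate mouse, so p-values measure only the spread between these libraries. The comparison asks how loss of ovarian hormones changes the transcripts of B cells in the marrow.

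Depth ranged from 23838775 to 33136701 reads per library. The 12 general B cell markers were detected in every library and took 0.949% to 1.07% of the reads. Sham replicate 2 stood apart in the make-up of its B cells. The 7 mature B cell markers, led by Ighd, took 0.287% of its reads and 0.116% to 0.157% in the other 5 libraries, and the count of each of the 7 was highest there. The 3 small pre-B markers, led by Rag1, took 0.0700% of its reads against 0.116% to 0.176% elsewhere, and 8 mitosis genes, led by Top2a, took 0.189% against 0.235% to 0.288%. Neutrophil markers, led by S100a9, were highest in Sham replicate 3, at 0.924% of the reads against 0.109% to 0.401%. Macrophage and monocyte markers, led by Vcam1, took 0.199% in Sham replicate 2 and 0.150% in OVX replicate 3, and 0.0530% to 0.0899% in the rest. Over all 15305 genes tested, Sham replicate 2 held the lowest value of 28.8% and the highest of 25.7%, where each of the other libraries held the lowest of 10.8% to 17.6% and the highest of 10.2% to 18.4%. The regulators that this library moved, and the pathway lists, are also given without it.

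None of the 10 G1 regulators passed the test between OVX and Sham. The threshold was an adjusted p under 0.05 with a change of 1.6-fold or more in edgeR's quasi-likelihood test (p-values adjusted over all genes by Benjamini-Hochberg). It was passed by 0 of the 15305 genes (0%), with DESeq2 and limma-voom as well. At an unadjusted p under 0.05 the table held 222 genes higher in OVX (1.45%) and 331 lower (2.16%), and 0 of the 10 regulators. The OVX libraries lay all above the Sham libraries for 662 genes (4.33%) and all below for 630 (4.12%), and for 0 of the 10 regulators, so the groups overlapped for each of them. By sign, Ccnd3 and the 4 inhibitors had positive log2 fold changes, and Ccnd1, Ccnd2, Cdk4, Cdk6 and Myc negative ones. Levels are given in CPM, which are reads scaled to each library's depth after TMM correction in edgeR. A level per transcript length was not available, so levels are compared for 1 gene between libraries and not between genes. In bulk RNA, fewer cells of a type and less RNA per cell cannot be told apart.

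**Figure D1:**
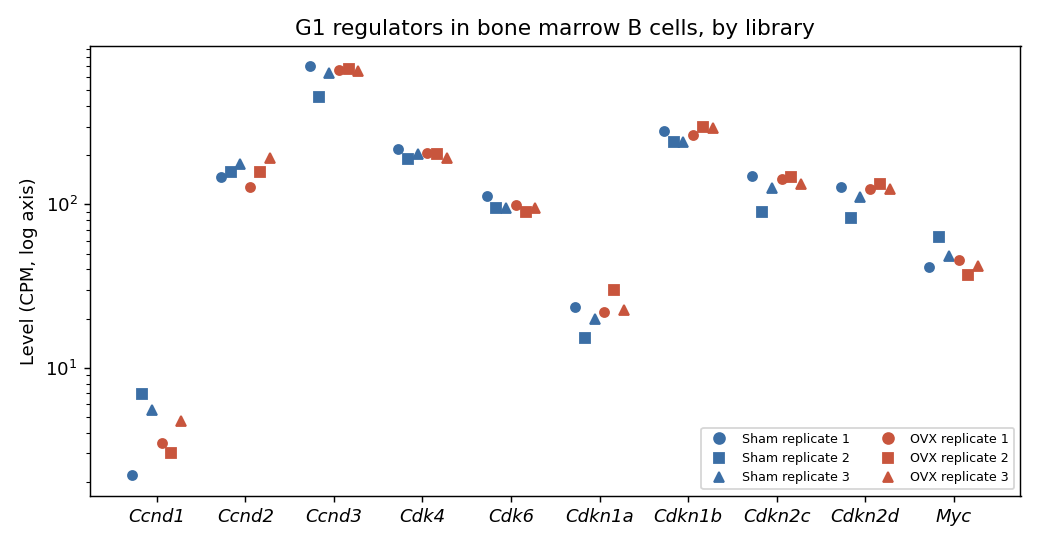
Level of each of the 10 G1 regulators in CPM (log axis) in each of the 6 libraries, with Sham in blue, OVX in red and the replicate number as the marker shape. The 2 groups overlap for every gene. The Sham replicate 2 square lies lowest for Ccnd3, Cdkn1a, Cdkn2c, Cdkn2d and, by little, Cdk4, and highest for Ccnd1 and Myc.

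Among the D-type cyclins, Ccnd3 (ENSMUSG00000034165, chr17:47505051-47599689, GRCm38.p6) encodes the cyclin that pre-B cells depend on for their expansion. Its level was 701, 453 and 638 CPM in Sham replicates 1 to 3 and 663, 678 and 655 CPM in OVX replicates 1 to 3. The OVX libraries lay within a narrow band, at 665 ± 11.9 CPM (SD, n = 3), inside the range of the Sham libraries, at 597 ± 129 CPM (SD, n = 3), in which replicate 2 was low. The log2 fold change was 0.16 (standard error 0.15, 95% interval -0.20 to 0.51, adjusted p = 0.824 in edgeR's quasi-likelihood test), and leaving out Sham replicate 2 gave -0.012. The genome also holds a copy of this gene, Ccnd3-ps, whose reads may be mixed with those of Ccnd3, so its level is uncertain to that extent.

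Ccnd2 (ENSMUSG00000000184, chr6:127125162-127152188) encodes the D-type cyclin that mature B cells induce when their antigen receptor is engaged. It read 147, 157 and 176 CPM in Sham and 129, 158 and 193 CPM in OVX, so the OVX group held both the lowest and the highest library. Mean levels were 159.8 ± 32.1 CPM in OVX and 160.1 ± 14.6 CPM in Sham (SD, n = 3 libraries each). No regulator lay nearer to 0, with a log2 fold change of -0.0020 (standard error 0.15, 95% interval -0.35 to 0.34, adjusted p = 0.997 in edgeR's quasi-likelihood test).

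Ccnd1 (ENSMUSG00000070348, chr7:144929931-144939831) encodes cyclin D1, which lymphocytes use little and many adherent cell types use as their main D-type cyclin. Only 52, 197 and 137 reads of it were found in the Sham libraries and 85, 85 and 156 in the OVX libraries. After scaling, Sham replicate 1 was the lowest of all 6 libraries at 2.20 CPM and Sham replicate 2 the highest at 6.94 CPM, a 3.16-fold range that no other regulator reached. The log2 fold change was -0.39 with a standard error of 0.41, and its 95% interval ran from -1.36 to 0.58 (edgeR's quasi-likelihood test, adjusted p = 0.833). It was -0.74 without Sham replicate 1 and -0.048 without Sham replicate 2. The highest levels of Ccnd1 were in Sham replicate 2, Sham replicate 3 (5.51 CPM) and OVX replicate 3 (4.72 CPM). Of these, Sham replicate 2 and OVX replicate 3 had the highest macrophage and monocyte shares and Sham replicate 3 the highest neutrophil share. Sham replicate 1, the lowest in Ccnd1, had a macrophage and monocyte share of 0.0899%, above the 0.0846% of Sham replicate 3. OVX replicate 1 had the next highest neutrophil share, 0.401%, and 3.46 CPM of Ccnd1. The part of these cells in the Ccnd1 reads was not tested.

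Within the reads of the D-type cyclins, not corrected for length, Ccnd3 took 82.4%, 73.4% and 77.9% in Sham and 83.4%, 80.8% and 76.8% in OVX. Ccnd2 took 17.3%, 25.5% and 21.5% in Sham and 16.2%, 18.8% and 22.6% in OVX. Ccnd1 took 0.258% to 1.13% in the 6 libraries. The Ccnd2 share was thus highest in Sham replicate 2 and lowest in OVX replicate 1, and the groups overlapped. Mature B cell markers were highest in Sham replicate 2 (0.287% of the reads) and next highest in OVX replicate 1 (0.157%). In Sham replicate 2 the level of Ccnd2, 157 CPM, lay within the range of the other libraries, and that of Ccnd3, 453 CPM, was the lowest. The part of mature B cells in the Ccnd2 share was not tested.

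Cdk4 and Cdk6 encode the kinases that D-type cyclins activate, and of these Cdk4 varied little between libraries. Cdk4 (ENSMUSG00000006728, chr10:127063535-127067288) had 217, 190.4 and 202 CPM in Sham and 206, 203 and 193 CPM in OVX. The highest library was only 1.14-fold above the lowest, where the median gene of at least 10 CPM had a ratio of 1.26 and the 10th percentile of such genes was 1.12. Its log2 fold change was -0.018 (standard error 0.073, 95% interval -0.19 to 0.15, adjusted p = 0.954 in edgeR's quasi-likelihood test), so this interval was the narrowest of the 10. Cdk6 (ENSMUSG00000040274, chr5:3341004-3531008) had 113, 95.4 and 95.6 CPM in Sham and 99.1, 89.6 and 95.2 CPM in OVX. Sham replicate 1 was the highest library, 1.27-fold above the lowest, a ratio near that of the median gene. The log2 fold change of Cdk6 was -0.10 (standard error 0.088, 95% interval -0.30 to 0.10, adjusted p = 0.821 in the same test), and it was -0.016 without Sham replicate 1.

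Cdk4 is a known target of Myc, which binds with Max to the E-box CACGTG. The 250 bases before each annotated transcript start were searched for these letters, which read the same on both strands, in the RefSeq promoters of GRCm38.p6. They held 7 of the 10 regulators in 10 windows, with no entry for Ccnd1, Ccnd2 and Myc. Cdk4 and Cdk6 were the 2 regulators with a match, and their windows are shown with each E-box in capitals because Cdk4 carries 4 of them.
Cdk4, chr10:127063285-127063534, plus strand: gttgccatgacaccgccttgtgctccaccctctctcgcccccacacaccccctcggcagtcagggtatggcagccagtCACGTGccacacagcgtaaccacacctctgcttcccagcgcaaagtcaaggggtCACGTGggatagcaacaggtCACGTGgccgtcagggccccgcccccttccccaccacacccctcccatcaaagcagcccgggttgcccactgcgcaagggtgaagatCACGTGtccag
Cdk6, chr5:3343643-3343892, plus strand: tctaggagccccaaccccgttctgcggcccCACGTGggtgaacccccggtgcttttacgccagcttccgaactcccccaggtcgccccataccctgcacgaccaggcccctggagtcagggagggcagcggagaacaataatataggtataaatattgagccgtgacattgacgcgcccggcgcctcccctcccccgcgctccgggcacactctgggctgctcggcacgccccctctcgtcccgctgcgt
In Cdk4 the E-boxes began 172, 118, 98 and 11 bases before the transcript start, which is also the start of the gene. In Cdk6 the E-box began 220 bases before a transcript start inside the gene, whose locus begins at 3341004. Of all 32851 windows of this length in the table, 1978 (6.02%) held at least 1 CACGTG and 7 (0.0213%) held at least 4. The core that hypoxia-inducible factors recognise, ACGTG or GCGTG on either strand, which overlaps CACGTG, was present in 8 of the 10 windows of the regulators and in 38.6% of all windows. A match of letters is not a measured binding site. Cdk4 had the smallest range of the 10 transcripts across the 6 libraries, and Myc differed 1.71-fold between its highest and lowest library. Whether the level of Cdk4 follows that of Myc was not tested.

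The INK4 inhibitors Cdkn2c and Cdkn2d, which encode p18 and p19 and hold CDK4 and CDK6 inactive, had like patterns. Cdkn2c (ENSMUSG00000028551, chr4:109660876-109666756) had 150.3, 89.6 and 126 CPM in Sham and 142, 147 and 133 CPM in OVX. Cdkn2d (ENSMUSG00000096472, chr9:21288459-21291421) had 128, 83.1 and 111 CPM in Sham and 124, 133 and 125 CPM in OVX. For both genes Sham replicate 2 was the lowest library, and OVX libraries lay within the Sham range or just above it. The log2 fold change was 0.21 for Cdkn2c (standard error 0.17, 95% interval -0.21 to 0.62) and 0.25 for Cdkn2d (standard error 0.15, 95% interval -0.09 to 0.59), each with an adjusted p of 0.820 in edgeR's quasi-likelihood test. These values without Sham replicate 2 were 0.023 and 0.092.

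The CIP/KIP inhibitors had positive log2 fold changes as well. Cdkn1a (ENSMUSG00000023067, chr17:29090979-29100722) encodes p21, a target of p53. Its level was 23.6, 15.1 and 19.996 CPM in Sham and 21.9, 30.1 and 22.7 CPM in OVX, with 430 to 853 reads per library. OVX replicate 2 was the highest library and Sham replicate 2 the lowest, while the other 4 lay between 19.996 and 23.6 CPM. Its log2 fold change of 0.35 (standard error 0.19, 95% interval -0.10 to 0.80, adjusted p = 0.820 in edgeR's quasi-likelihood test) was the largest positive one of the 10. It was 0.19 without Sham replicate 2 and 0.21 when the share of neutrophil markers entered the fit.

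Cdkn1b (ENSMUSG00000003031, chr6:134920401-134925525) encodes p27, which accumulates in resting lymphocytes and which FOXO factors induce. It had 283, 239.7 and 239.6 CPM in Sham and 266, 299.5 and 294 CPM in OVX. OVX replicates 2 and 3 lay above every Sham library, and OVX replicate 1 lay below Sham replicate 1. Means were 286 ± 18.0 CPM in OVX and 254 ± 25.0 CPM in Sham (SD, n = 3 libraries each). Its log2 fold change was 0.17 (standard error 0.091, 95% interval -0.04 to 0.39, adjusted p = 0.820 in edgeR's quasi-likelihood test) and, at an unadjusted p of 0.0974, had the lowest p of the 10. The value was 0.13 without Sham replicate 2 and 0.053 with the neutrophil share in the fit. The neutrophil markers were at 0.109% and 0.117% of the reads in OVX replicates 2 and 3, the 2 libraries in which Cdkn1b was highest, and the part of these cells in its level was not tested.

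Myc (ENSMUSG00000022346, chr15:61985341-61990361) ran the other way. Its level was 41.5, 63.5 and 48.5 CPM in Sham and 45.9, 37.1 and 41.8 CPM in OVX. Sham replicate 2 was the highest library, OVX replicate 2 the lowest, and Sham replicate 1 lay below OVX replicates 1 and 3. The means were 41.6 ± 4.39 CPM in OVX and 51.2 ± 11.2 CPM in Sham (SD, n = 3 libraries each). This gave a log2 fold change of -0.30 (standard error 0.16, 95% interval -0.68 to 0.08, adjusted p = 0.820 in edgeR's quasi-likelihood test), and of -0.12 when Sham replicate 2 was left out.

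Several of these values depended on single Sham libraries. Without Sham replicate 1, 6 of the 10 regulators had an unadjusted p under 0.05: Ccnd1, Cdkn1a, Cdkn1b, Cdkn2c, Cdkn2d and Myc. Of the 16051 genes tested in the same setting 2600 passed that threshold, against 553 of 15305 with all libraries. The adjusted p of the regulators stayed between 0.264 and 0.923. Sham replicate 2, which stood apart in the make-up of its B cells, was a larger part of the Sham group in this setting. Its part in these p-values was not tested. Cdkn1b then had a log2 fold change of 0.25, Cdkn2d 0.39, Cdkn2c 0.38, Cdkn1a 0.50, Myc -0.43 and Ccnd1 -0.74. Without Sham replicate 2 all 10 values lay between -0.15 and 0.19. In an exact permutation test of each gene's log2 level (two-sided, smallest p possible 0.1) the p ranged from 0.2 for Cdkn1b to 1 for Ccnd2 and Cdk4.

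**Figure D2:**
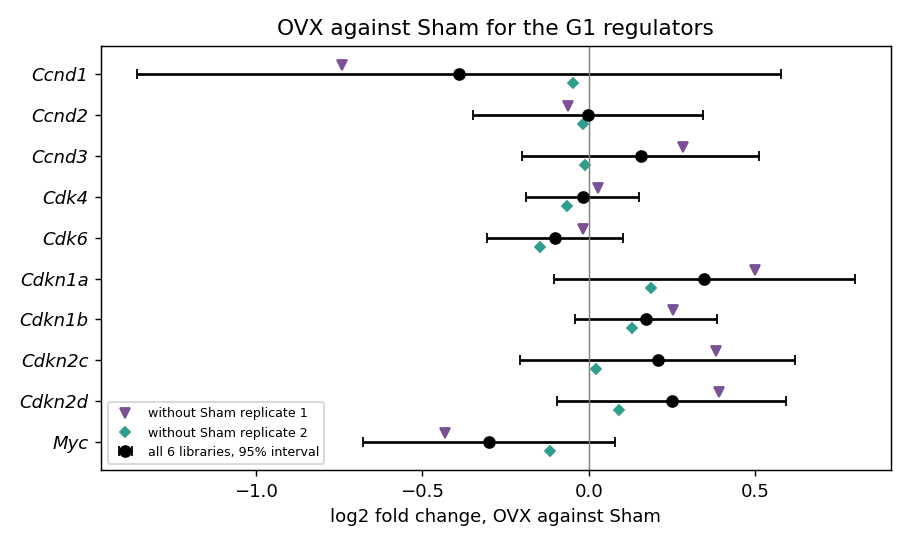
Log2 fold change of OVX against Sham for each G1 regulator (x axis), with all 6 libraries (black, with the 95% interval of edgeR's quasi-likelihood fit), without Sham replicate 1 (purple) and without Sham replicate 2 (green). Every interval includes 0, and for Ccnd1, Cdkn1a, Cdkn2c, Cdkn2d and Myc the value lies farther from 0 without Sham replicate 1 and nearer to it without Sham replicate 2.

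Across the 6 libraries, Ccnd3, Cdkn2c and Cdkn2d had nearly the same profile. The measure of likeness was the root mean square difference of log2 levels, each centred on its gene's mean. It was 0.051 between Cdkn2c and Cdkn2d, 0.055 between Ccnd3 and Cdkn2d and 0.057 between Ccnd3 and Cdkn2c, the 3 smallest of all pairs of regulators, followed by 0.077 between Cdk4 and Cdk6. Ccnd1 and Cdkn1a were farthest apart, at 0.796. Sham replicate 2 was the lowest library for 5 regulators (Ccnd3, Cdk4, Cdkn1a, Cdkn2c and Cdkn2d) and the highest for 2 (Ccnd1 and Myc). The same library had the lowest small pre-B and mitosis shares and the highest mature B share given above, and the part of B cell stage in these levels was not tested. Cdk6 was highest in Sham replicate 1, as were Ccnd3, Cdk4 and Cdkn2c. Cdkn1b was highest in OVX replicate 2, as were Cdkn1a and Cdkn2d. In Sham replicate 2, Cdkn1b (239.7 CPM) was level with Sham replicate 3 (239.6 CPM), its lowest library.

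**Figure D3:**
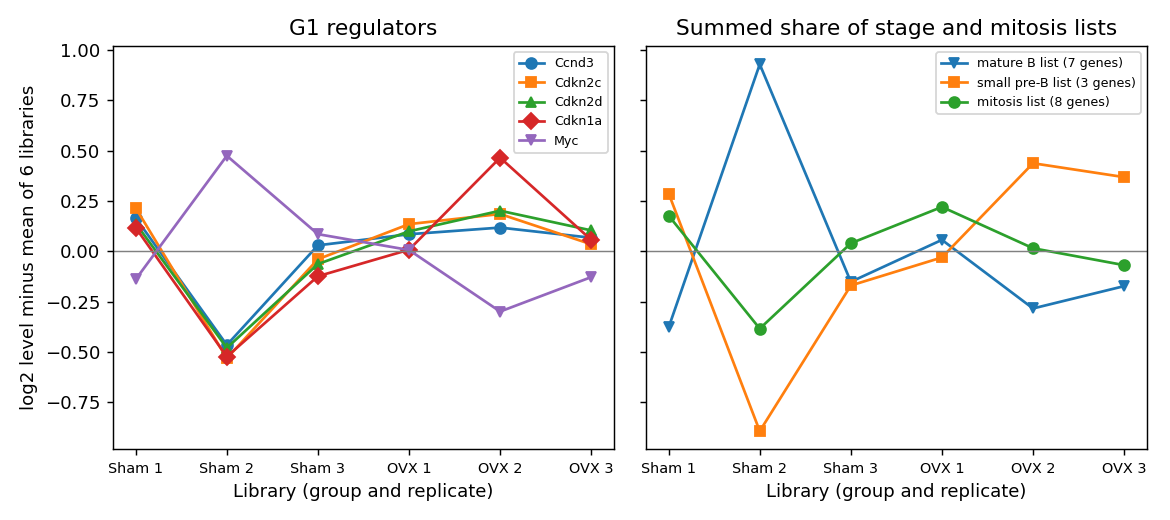
Left, log2 level of Ccnd3, Cdkn2c, Cdkn2d, Cdkn1a and Myc minus the gene's mean over 6 libraries; right, the same for the summed read share of the mature B, small pre-B and mitosis lists, with the libraries on the x axis and lines joining the points only to guide the eye. In Sham replicate 2, Ccnd3, Cdkn2c, Cdkn2d, Cdkn1a, the small pre-B share and the mitosis share are at their lowest, and Myc and the mature B share at their highest.

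Among all genes tested, the 2 nearest to Cdkn2c by the same measure were Fam53b (0.022) and Ccna2 (0.029), which encodes cyclin A2 of S phase and G2. Nearest to Cdkn2d were Otub2 (0.026) and Bcr (0.028), to Ccnd3 Rwdd2b (0.022) and Gm10282 (0.036), and to Cdk4 Slain2 (0.014) and Spout1 (0.014). Cdkn1b lay nearest to Zfp46 (0.014) and Sys1 (0.015), Cdk6 to Cep78 (0.035) and Dctpp1 (0.042), and Myc to Krba1 (0.043) and Hs1bp3 (0.044). The nearest genes were less close for Cdkn1a, with Cnp (0.049) and Hes6 (0.061), for Ccnd2, with Zfp658 (0.071) and Grn (0.076), and for Ccnd1, with Frmpd1 (0.112) and Ltbp3 (0.136). A gene with little variation has many near neighbours by this measure, so the distances do not rank the regulators.

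Ratios within a library, which need no scaling factor, were compared for 6 pairs, and none separated the groups. The ratio of Ccnd2 to Ccnd3 reads was 0.210, 0.347 and 0.276 in Sham and 0.194, 0.233 and 0.294 in OVX, a mean log2 difference of -0.20 (exact permutation test, two-sided, p = 0.5, 0.72 after adjustment over the 6 pairs). Sham replicate 2 had the highest ratio, and the difference was -0.021 without it and -0.054 without OVX replicate 1. The ratio of Cdk4 to Cdk6 reads was steady, at 1.92, 1.996 and 2.12 in Sham and 2.08, 2.27 and 2.02 in OVX, with a mean log2 difference of 0.080 (exact permutation p = 0.4, adjusted 0.72). Steadier still was Cdkn2c to Cdkn2d, at 1.18, 1.08 and 1.14 in Sham and 1.15, 1.11 and 1.07 in OVX, with a difference of -0.033 (exact permutation p = 0.5, adjusted 0.72). So both INK4 transcripts kept their proportion within a span of 1.07 to 1.18 while Cdkn2c itself differed 1.68-fold between its highest and lowest library.

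The ratio of Cdkn1a to Cdkn1b was 0.0836, 0.0633 and 0.0835 in Sham and 0.0825, 0.101 and 0.0772 in OVX, with a mean log2 difference of 0.18 (exact permutation p = 0.6, adjusted 0.72). OVX replicate 2 had the highest value and Sham replicate 2 the lowest, and the difference was 0.067 without the former and 0.045 without the latter. Cdkn1b against Ccnd3, an inhibitor set against a cyclin, was 0.404, 0.530 and 0.376 in Sham and 0.401, 0.442 and 0.449 in OVX. Its mean log2 difference of -0.0046 (exact permutation p = 0.9, adjusted 0.9) turned to 0.14 without Sham replicate 2, which had the highest ratio. Ccnd1 to Ccnd3 ranged from 0.00316 to 0.0154 in Sham and from 0.00445 to 0.00724 in OVX, with a difference of -0.44 (exact permutation p = 0.6, adjusted 0.72) that was 0.079 without Sham replicate 2.

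**Figure D4:**
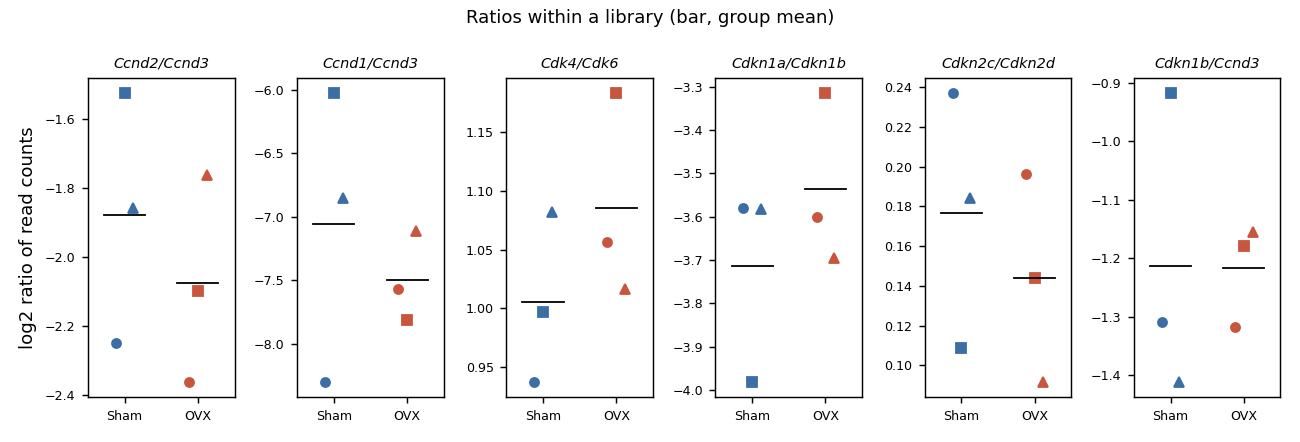
Log2 ratio of read counts within each library for 6 pairs of G1 regulators, Sham in blue and OVX in red, with circles, squares and triangles for replicates 1, 2 and 3 and a bar at the group mean (y axes differ between panels). The groups overlap in all 6 panels, and the Cdkn2c/Cdkn2d panel spans the smallest range.

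The other genes of the pathway were counted from lists of known function, beside a median log2 fold change of -0.0081 over all genes tested. Of all genes tested, 7371 were higher in OVX and 7934 lower. None of the genes on the lists was called. Among the inhibitors that are not among the 10, Cdkn1c had a log2 fold change of 0.043 and Cdkn2a, which encodes p16 and p19ARF, of -0.41 at 12 to 29 reads per library. Cdkn2b, with 2 to 9 reads, was not tested. Without Sham replicate 2 the 2 tested genes were both negative, with a median of -0.33 against -0.18 with all libraries.

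Downstream of the D-type cyclins, 6 of the 8 genes of cyclin E, cyclin A and CDK2 had positive log2 fold changes and 2 negative ones (median 0.12). Without Sham replicate 2 they were 5 and 3 with a median of 0.020, and without Sham replicate 1 the median was 0.19. Cdk2, the kinase of late G1 and S phase, had 144, 135 and 138 CPM in Sham and 155, 145 and 155 CPM in OVX, so its OVX libraries lay just above all Sham libraries (log2 fold change 0.12, unadjusted p = 0.0898 in edgeR's quasi-likelihood test, adjusted p = 0.820). Ccna2 had the largest value, 0.21, at 306, 184 and 251 CPM in Sham and 298, 290 and 268 CPM in OVX, and was lowest in Sham replicate 2.

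Of the 13 genes of the RB and E2F families 8 were positive and 5 negative, with a median of 0.085. E2f2 had the largest value, 0.28, at 737, 452 and 643 CPM in Sham and 722, 812 and 685 CPM in OVX. Tfdp2, a partner of E2F factors, had the lowest p of the list (0.26, unadjusted p = 0.0977 in edgeR's quasi-likelihood test). Both were lowest in Sham replicate 2, and without it the list had 4 positive and 9 negative values and a median of -0.030. The median was 0.0020 without OVX replicate 1 (7 positive, 6 negative). The retinoblastoma gene Rb1 itself had 131, 138 and 161 CPM in Sham and 150.4, 139 and 127 CPM in OVX.

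S phase and mitosis genes were also lowest in Sham replicate 2 as a group, at 0.181% of the reads for the S phase list against 0.210% to 0.238% elsewhere. Of 12 S phase genes 10 were positive and 2 negative (median 0.046), with Slbp at 0.15 and Gins2 at 0.21. The sign of this median turned in 3 settings, each with 5 positive and 7 negative values: without Sham replicate 2 (median -0.027), without OVX replicate 1 (-0.0081) and with scaling on the general B cell genes (-0.019). Without Sham replicate 1, Sham replicate 3 or OVX replicate 3 the S phase median was 0.16, 0.090 and 0.097. All 8 mitosis genes were positive (median 0.12, Ccnb2 the largest at 0.20), and without Sham replicate 2 the count was 1 positive and 7 negative, with a median of -0.033. The sign of the mitosis list thus rested on 1 Sham library. Its median was also 0.26 when Sham replicate 1 was left out, and 0.056 and 0.18 when OVX replicates 1 and 3 were. Ubiquitin ligase genes that control the turnover of G1 regulators had 5 positive and 2 negative values (median 0.057), with Rbx1 at 0.15 and Skp2, which targets p27 for degradation, at 0.15. The median was 0.027 without Sham replicate 1, 0.024 without Sham replicate 2, 0.025 without OVX replicate 2 and -0.013 with scaling on the general B cell genes.

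Upstream, the list of interleukin-7 receptor, FOXO and lymphoid regulators had 8 positive and 4 negative values (median 0.054), with a median of 0.023 without Sham replicate 1, 0.044 without Sham replicate 2, 0.10 without Sham replicate 3 and -0.016 with scaling on the general B cell genes. Il7r, the receptor that drives pre-B cell division, had 332, 220.1 and 266 CPM in Sham and 328, 334 and 363 CPM in OVX. Sham replicate 2 was again the lowest library and OVX replicate 1 lay just below Sham replicate 1 (log2 fold change 0.33, standard error 0.14, unadjusted p = 0.0548 in edgeR's quasi-likelihood test, adjusted p = 0.820). Of 10 p53 genes tested, 5 were positive and 5 negative, and the median of -0.017 lay between -0.055 (without Sham replicate 3) and 0.024 (without OVX replicate 1) as libraries were left out, at -0.019 without Sham replicate 2. Zmat3, a p53 target, had 6.50, 9.72 and 7.76 CPM in Sham and 5.01, 5.51 and 6.11 CPM in OVX (log2 fold change -0.53, unadjusted p = 0.0318 in edgeR's quasi-likelihood test, adjusted p = 0.820). The p53 targets Phlda3, at 0.57, and Cdkn1a, at 0.35, had the opposite sign, and Eda2r, with 0 to 3 reads, was not tested. Genes of the p53 list at an unadjusted p under 0.05 numbered 1 in the main fit and 3 without Sham replicate 1. They numbered 0 without Sham replicate 2, with replicate number as a block or with the neutrophil share in the fit.

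The Myc and Max network had 7 positive and 4 negative values among 11 genes (median 0.079). The median was 0.14 without Sham replicate 1, 0.030 without Sham replicate 2, and 0.025 and 0.053 when OVX replicates 2 and 3 were left out. Zbtb17, which encodes MIZ1, a partner through which Myc represses genes, had 67.1, 55.5 and 59.3 CPM in Sham and 70.8, 74.7 and 72.8 CPM in OVX. Its OVX libraries lay above all Sham libraries, with a log2 fold change of 0.26 (standard error 0.084, unadjusted p = 0.0151 in edgeR's quasi-likelihood test, adjusted p = 0.820). Mycl had the largest absolute value, -0.82, at 0.727 to 1.85 CPM (unadjusted p = 0.0487). The third gene at an unadjusted p under 0.05 was Mxd4, an antagonist of Myc, named after its values were seen, with 245, 172 and 204 CPM in Sham and 232, 273 and 297 CPM in OVX (0.37, unadjusted p = 0.0375). Genes of this list at that threshold numbered 3 in the main fit and 4 without Sham replicate 1. They numbered 1 without Sham replicate 2, 1 with replicate number as a block, 1 with scaling on the general B cell genes and 0 with the neutrophil share in the fit.

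Genes of ribosome synthesis and polyamine synthesis that are known to respond to Myc had nearly all their values on one side. Of 14 genes 13 had a negative log2 fold change (median -0.13, lowest -0.38), and Bop1, at 0.073, was the positive one. Among all 15305 genes tested, 7934 had a negative value. For 6 of the 14 the OVX libraries lay all below the Sham libraries, where 4.12% of all genes did. The list was chosen with earlier results of these data known, and its genes were read from the same libraries and are not independent. These counts are therefore a description and not a test. Srm, which encodes spermidine synthase, had 37.2, 42.3 and 41.7 CPM in Sham and 34.4, 30.9 and 27.7 CPM in OVX. Every OVX library was below every Sham library (log2 fold change -0.38, standard error 0.11, unadjusted p = 0.00715 in edgeR's quasi-likelihood test, adjusted p = 0.820).

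The other 2 genes of this list at an unadjusted p under 0.05, named after their values were seen, were Odc1 and Gnl3. Odc1 encodes ornithine decarboxylase, the first enzyme of polyamine synthesis, and had 105, 112 and 125 CPM in Sham and 102, 99.0 and 92.7 CPM in OVX (log2 fold change -0.22). Gnl3, the nucleolar protein nucleostemin, had 64.3, 72.0 and 63.1 CPM in Sham and 58.6, 54.5 and 58.4 CPM in OVX (log2 fold change -0.22). None of the 14 was called. With each library left out in turn 13 of 14 were negative every time and the median lay between -0.17 and -0.11, at -0.14 without Sham replicate 2. It was -0.079 with the neutrophil share in the fit. The genes of the list at an unadjusted p under 0.05 numbered 3 in the main fit and 6 without Sham replicate 1. They numbered 1 with the replicate block and 0 with the neutrophil share in the fit. The list shares libraries with Myc itself, whose log2 fold change shrank from -0.30 to -0.12 without Sham replicate 2. Whether the levels of the list follow that of Myc was not tested.

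**Figure D5:**
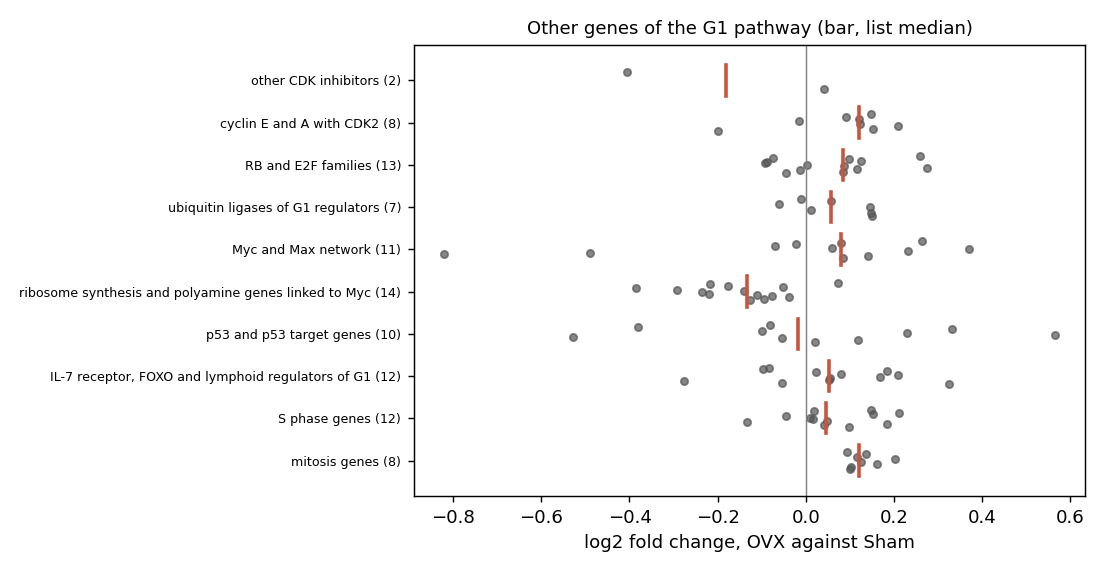
Log2 fold change of OVX against Sham (x axis) for each tested gene of 10 pathway lists, 1 point per gene and a red bar at the list median, with the number of genes tested in brackets. In the list of ribosome synthesis and polyamine genes 13 of 14 points lie left of 0, and all 8 mitosis genes lie right of it, of which 1 does without Sham replicate 2.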

How the data were processed

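RNA-seq was run on B cells of the bone marrow, with 3 samples from OVX mice and 3 from Sham mice. The authors deposited raw read counts per Ensembl gene, without normalization, in 1 table whose 6 columns matched the sample labels (0 columns were left unmapped). The submitters' processing notes name mm10, CASAVA and Bowtie 0.12.2 without their roles. The counting tool, annotation and strand setting are not given in the sources used here. The ChIP-seq samples were not analysed here. Symbols matched 54409 of 54532 identifiers, and coordinates and promoters are from RefSeq, GRCm38.p6.

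Differential expression was tested with edgeR 4.0.16 in R 4.3.3 (filterByExpr, TMM, robust quasi-likelihood test without a block, Benjamini-Hochberg adjustment over 15305 genes). Totals were 23838775 to 33136701 reads, and library pairs all differed beyond sampling noise. Intervals of 95% come from the fit. Ratios of counts had 0.5 added to each count and were compared by exact permutation tests. The scripts were tested on simulated data. Likeness and permutation tests used log2 CPM with a prior count of 2. Alternatives were DESeq2 1.42.0, limma-voom (limma 3.58.1), other scalings including 12 general B cell genes, other filters and fold thresholds, covariates, a replicate block and leaving out each library.

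The members and lists were chosen with earlier results of these data known. Named were the 10 regulators, and from each list the genes called, with the lowest p, with the largest absolute fold change or not tested, and for markers the summed share and the most abundant gene. Genes named after their values were seen are marked, and Rb1, Bop1 and Cdkn1c were also named outside this rule.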

Additional observations from a re-analysis of the deposited data

How the results depend on the processing

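No gene, and none of the 10 regulators, was called in any of the 20 alternatives. Genes at an unadjusted p under 0.05 numbered 553 with all libraries, 971 with no filter on low counts, 143 with the neutrophil share as a covariate and 225 to 2600 when 1 library was left out (lowest without OVX replicate 2, highest without Sham replicate 1; 326 without Sham replicate 2, 277 without Sham replicate 3, 971 without OVX replicate 1). The regulators at that threshold numbered 0 to 6 over the same omissions, with 6 only without Sham replicate 1. With the replicate block 207 genes passed; the labels do not say that replicate numbers pair samples, and same-numbered deviations correlated at -0.41, -0.189 and -0.279.

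Of 170 values of the regulators under alternatives 7 changed sign, and none passed the threshold. Ccnd2 (-0.0020) ranged from -0.16 to 0.13 over the omissions (0.063 without Sham replicate 3, 0.13 without OVX replicate 1, 0.0069 without OVX replicate 2) and was 0.036 with the mitosis share as a covariate. Cdk4 (-0.018) ranged from -0.066 to 0.028 (0.012 without OVX replicate 3) and Ccnd3 (0.16) from -0.012 to 0.28. The log2 difference of Ccnd1/Ccnd3 ranged from -1.06 to 0.079, and that of Cdkn1b/Ccnd3 from -0.10 to 0.14 (0.14 without Sham replicate 2, 0.045 without OVX replicate 1). The RB and E2F median was -0.030 without Sham replicate 2. Scaling on general B cell genes moved the median of all genes to -0.077, with Myc at -0.36 and Cdkn2d at 0.18. Levels per transcript length were not run, as no transcript lengths were used here. Ccnd1, with 52 to 197 reads, had the widest interval.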

Other observations

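The 11 macrophage and monocyte markers did not vary as 1 group, which was seen only after their counts were read. Reads of C1qa, a complement gene of resident macrophages, numbered 2436, 6302 and 1606 in Sham replicates 1 to 3 and 1366, 1886 and 6176 in OVX replicates 1 to 3, so Sham replicate 2 and OVX replicate 3 were high. Ly6c2, a gene of inflammatory monocytes, had 734, 1765 and 3749 reads in Sham and 1379, 439 and 429 in OVX, and was highest in Sham replicate 3, the library with the largest neutrophil share. Ccnd1 was highest in these same 3 libraries. It was lowest in Sham replicate 1 (2.20 CPM), which had more C1qa reads than Sham replicate 3, and was 3.46 CPM in OVX replicate 1. Whether its reads come from such cells was not tested.

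Markers of pro-B and large pre-B cells took 0.0929%, 0.0624% and 0.0445% of the reads in Sham and 0.0658%, 0.0763% and 0.0963% in OVX. Plasma cell markers, led by Jchain, took 0.0648% to 0.107% in Sham and 0.0560% to 0.0732% in OVX. T and NK cell markers, led by Cd4, took at most 0.00476% in any library. The groups overlapped in the summed share of all 3 lists. These sums follow their most abundant gene: 3 of the 6 plasma cell markers had positive and 3 negative log2 fold changes. Cd4 had 1081 reads in OVX replicate 3, its highest, where Cd3e had 3, against 33 in Sham replicate 2.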
